A study of Mus musculus with 7 samples.

Results

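Sperm RNA of males that carried a KDM1A transgene was compared with sperm RNA of littermates that had not inherited it. The comparison used 6 of the 7 expression arrays of the study: 3 of carriers, titled TG3, and 3 of littermates, titled nonTG3. It was described across the 23493 probe sets of 33604 that the platform annotation ties to exactly 1 gene symbol, and again across the 5011 of these (21.3%) whose mean over the 6 arrays was 5 or more. Values are log2 intensities as the authors deposited them, so a difference of 1 is a doubling of signal.

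Each array held RNA pooled from 4 males. The line began with 2 female founders that came from C57BL/6 zygotes microinjected with the construct, and heterozygous males mated to C57BL/6 females then passed the transgene on. Both TG3 and nonTG3 males belonged to generation 3, so both descended from males that carried the transgene, and they differ in whether they hold it themselves. The sources used here do not give the promoter that drives the transgene, the animals' age or the founder behind each pool. Whether pools shared males is not stated either, so the tests measure the spread between these pools, which may be partly technical. The question is what carrying the transgene adds to sperm RNA among males of shared ancestry.

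KDM1A removes methyl groups from histone H3, mainly from lysine 4, a mark of active promoters. Late in spermatogenesis most histones give way first to transition proteins and then to protamines, transcription stops, and the mature sperm keeps a remnant of spermatid RNA together with RNA taken up or carried along during passage through the epididymis. Sperm RNA is therefore a record of earlier stages and of the surrounding tissue rather than of ongoing transcription. In such a bulk sample fewer cells of a type and less RNA per cell cannot be told apart.

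The arrays carried the RNAs that define sperm. Prm1, the gene of protamine 1, which packs sperm DNA, read 10.18, 10.22 and 10.08 on TG3 arrays 1, 2 and 3 and 10.15, 10.19 and 10.35 on nonTG3 arrays 1, 2 and 3. Smcp, a cysteine-rich protein of the sperm mitochondrial capsule, read 11.59, 11.87 and 12.11 in TG3 and 11.87, 11.56 and 11.77 in nonTG3. Markers of other cells were mostly dim. Of 47 leukocyte genes 5 had a mean of 5 or more, and Ptprc, the pan-leukocyte surface marker CD45, lay between 3.03 and 3.25 on the 6 arrays, below each array's median. Of 26 Sertoli cell genes 5 and of 12 Leydig cell genes 1 reached 5, and of 8 red blood cell genes 0 did. The exceptions were the epididymal epithelium, with 21 of 54 genes at 5 or more, and fibroblasts, muscle and vessels, with 15 of 45. Levels of both lists are given with the results below. Whether dim values lie above background was not measured.

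Kdm1a itself read the same in carriers and littermates. Its probe set gave 5.06, 5.27 and 5.27 in TG3 and 5.07, 5.27 and 5.27 in nonTG3. The difference was -0.0033 log2 units, with a 95% interval from -0.26 to 0.26, and a two-sided exact permutation test over the 3 against 3 arrays gave p = 1, where 0.1 is the smallest p this design allows. Exactly equal values, which the authors' summary of probes into probe sets can return, limit what this comparison shows. The sources used here do not state if this probe set detects RNA from the transgene, so its equal readings cannot check the labels.

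No RNA passed the test between carriers and littermates. limma called 0 of 23493 probe sets at an adjusted p under 0.05 (0%), with a smallest adjusted p of 0.923, and 0 of the 5011 brighter ones (0%), with a smallest adjusted p of 0.935. Without adjustment, 559 probe sets (2.38%) had a p under 0.05, 348 with a higher mean in TG3 (1.48%) and 211 with a lower one (0.898%). Among the brighter probe sets there were 64 (1.28%), 46 higher (0.918%) and 18 lower (0.359%). All later statements about single genes are descriptions of values from this comparison, in which no gene was called.

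The differences were small for most RNAs and centred on 0. Over all probe sets the median difference was 0.0045, the quartiles were -0.12 and 0.13, and the mean was higher in TG3 for 51% of probe sets and lower for 48.4%. Among the brighter probe sets the median was -0.040 and the quartiles were -0.21 and 0.13. There 43.6% had a higher mean in TG3 and 56.4% a lower one. The share higher was 50.8% after cyclic loess normalization and 54.0% without TG3 array 3. A difference of at least 1 log2 unit was seen for 35 probe sets higher and 11 lower in TG3, of which 24 and 3 were among the brighter.

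How much difference the arrays could have missed follows from the intervals. The median 95% interval reached 0.392 log2 units to either side of the estimate over all probe sets and 0.556 among the brighter ones. For 20424 probe sets (86.9%) the interval lay wholly within 1 log2 unit of 0, and for 10618 (45.2%) it lay within 0.5. Among the brighter probe sets these counts were 3567 (71.2%) and 922 (18.4%). A doubling of signal is therefore outside the interval for most probe sets, while changes of smaller size are within it for many. Only 21.3% of the probe sets had a mean of 5 or more, and 30.9% had 4 or fewer distinct values. A narrow interval at a dim probe set does not bound the change in RNA, as values there were not shown to lie above background. A p that misses the threshold does not show that carriers and littermates were alike.

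**Figure D1:**
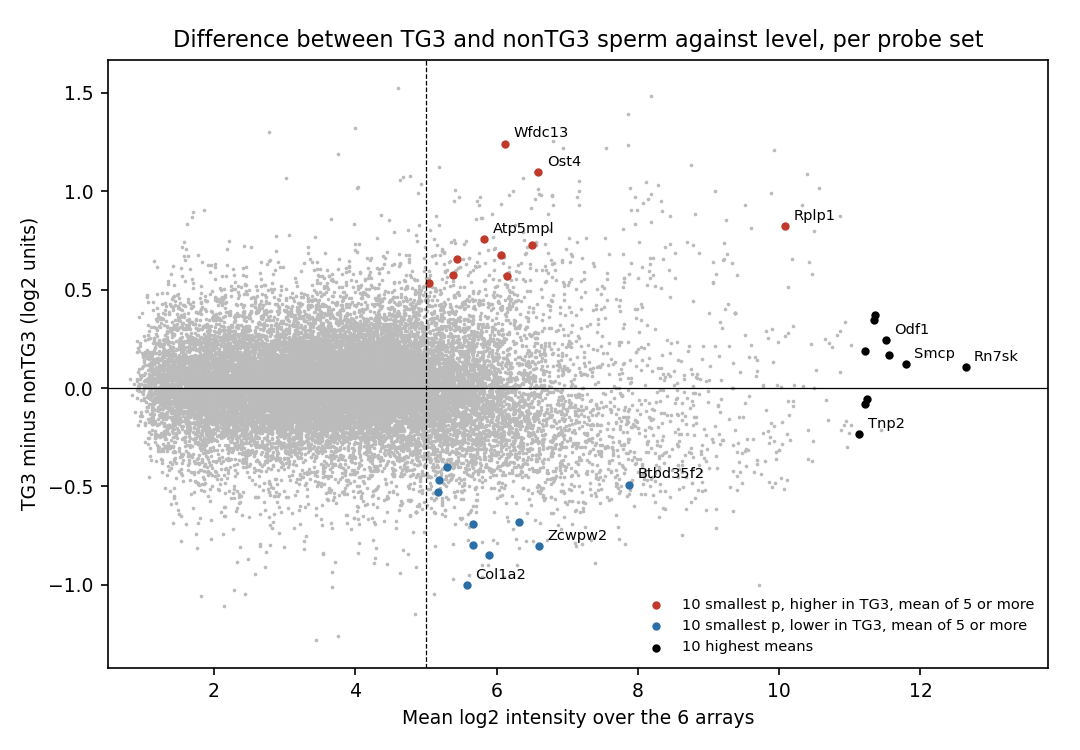
Difference between TG3 and nonTG3 means (vertical axis, log2 units) against the mean level over the 6 arrays (horizontal axis, log2 intensity), 1 point per probe set with 1 gene symbol, with the 10 smallest p-values in each direction among the brighter probe sets in colour and the 10 highest means in black. The dashed line is the mean of 5, and the points spread around 0 between -1.28 and 1.53.

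In a further description, a probe set was counted where each TG3 array lay on the same side of each nonTG3 array. Over all probe sets 969 (4.12%) were so separated, 581 with TG3 higher (2.47%) and 388 with TG3 lower (1.65%). Among the brighter ones there were 180 (3.59%), 104 higher (2.08%) and 76 lower (1.52%). Over the same brighter probe sets, cyclic loess gave 147 higher and 178 lower, while a repeated quantile normalization gave 195 and 127 and centring on array medians gave 124 and 67, so the lean toward higher values turned under 1 of 3 other scalings. The probe sets described singly below are read against these shares.

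The 6 arrays did not sort by genotype. Among the brighter probe sets Pearson's r over genes, which are not independent replicates, was 0.824 to 0.953 for the 6 pairs of arrays of the same genotype, with a mean of 0.895. It was 0.778 to 0.972 for the 9 pairs of different genotype, with a mean of 0.898. TG3 array 1 was closest to nonTG3 array 3 (r = 0.964), and TG3 array 2 was closest to nonTG3 array 1 (r = 0.972). Over all probe sets with 1 gene symbol, the first principal component held 47.0% of the variance. It placed TG3 array 1 and nonTG3 array 3 at one end, at -29.5 and -40.1. TG3 arrays 2 and 3 and nonTG3 array 1 lay at the other, at 21.4, 38.3 and 17.1. nonTG3 array 2 lay between them at -7.25. The main difference among these pools therefore ran across both genotypes.

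The weight that limma estimates for an array is high where its values lie close to the mean of its group. Over all probe sets the weights were 0.636, 1.38 and 0.723 for TG3 arrays 1, 2 and 3 and 1.06, 1.73 and 0.857 for nonTG3 arrays 1, 2 and 3. Among the brighter probe sets they were 0.423, 2.47 and 0.574 in TG3 and 0.974, 2.41 and 0.709 in nonTG3. In each genotype array 2 had the highest weight, and TG3 array 1 had the lowest weight of the 6 in both sets. Fitting with these weights left 0 probe sets called, and the count at an unadjusted p under 0.05 became 950 over all probe sets and 570 among the brighter.

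Leaving out single arrays moved the uncorrected counts far more than the calls. Among the brighter probe sets the 46 higher and 18 lower became 100 and 470 without TG3 array 1, and 312 and 35 without nonTG3 array 1. They became 7 and 16 without TG3 array 2, 31 and 14 without TG3 array 3, 7 and 7 without nonTG3 array 2, and 16 and 6 without nonTG3 array 3. limma called 0 probe sets in each of these fits, and the smallest adjusted p in this set, 0.255, came without nonTG3 array 1. Over all probe sets the 559 became 1424 without TG3 array 1 and 1174 without nonTG3 array 1. Which direction held more RNAs thus rested on which pool was included.

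**Figure D2:**
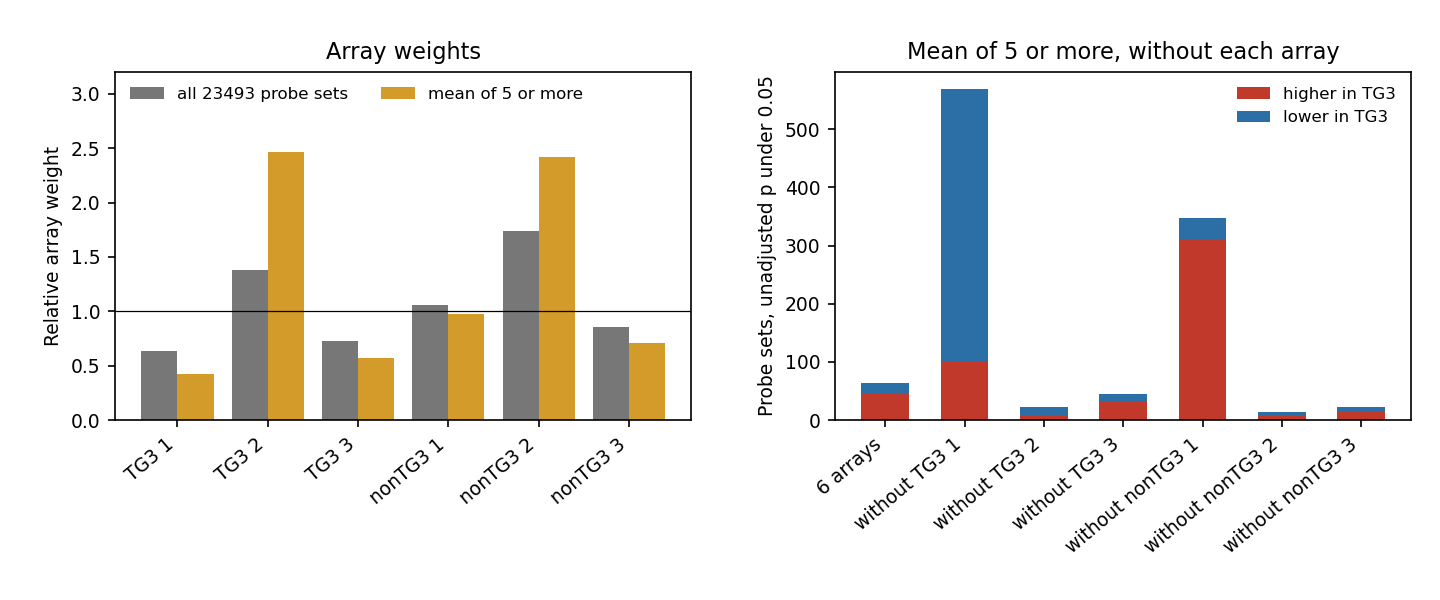
Left, the relative weight of each array (vertical axis, no unit) over all probe sets with 1 symbol and over those with a mean of 5 or more, 1 bar per array and set, with a line at 1. Right, the number of brighter probe sets with an unadjusted limma p under 0.05, higher or lower in TG3, with the 6 arrays and without each array in turn; lower ones reach 470 without TG3 array 1.

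The RNAs that spread most within a genotype show what set the pools apart. They were taken from the brighter probe sets by their standard deviation around the 2 genotype means, so they were chosen after their values were seen. Mitochondrially encoded subunits of respiratory complex I led: ND3 read 8.51, 12.17 and 12.15 in TG3 and 12.12, 9.32 and 8.12 in nonTG3. Its standard deviation within a genotype was 2.08, and the other mitochondrial genes ND2 (2.05) and CYTB (1.72) followed the same arrays. TG3 array 1 and nonTG3 array 3 were low, nonTG3 array 2 was between, and the other 3 were high.

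Other RNAs among the most variable followed the same split of arrays. Fos, a subunit of the AP-1 transcription factor, read 4.47, 7.76 and 6.38 in TG3 and 6.86, 4.77 and 4.13 in nonTG3. Zfp36, an RNA-binding protein that destabilises AU-rich mRNAs, read 4.57, 7.82 and 7.59 in TG3 and 7.10, 4.91 and 5.02 in nonTG3. Both were high on TG3 arrays 2 and 3 and nonTG3 array 1 and overlapped between genotypes. Wfdc8, of a family of protease inhibitors, read 5.36, 8.52 and 8.39 in TG3 and 8.21, 7.83 and 4.84 in nonTG3, and Aldh6a1, a mitochondrial dehydrogenase of valine breakdown, read 5.41, 7.50 and 7.92 against 8.26, 5.17 and 4.66. A further Aldh6a1 probe set read 5.73, 6.86 and 6.83 against 6.71, 6.42 and 4.65. Snord17, a small nucleolar RNA, followed another order, at 7.40, 10.33 and 11.07 in TG3 and 8.15, 10.31 and 7.33 in nonTG3. For these RNAs the 2 genotypes covered nearly the same range, and the mean difference for ND3, 1.09, had an interval from -2.47 to 4.64.

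The brighter RNAs with higher means in TG3 and the smallest p-values or largest differences included genes of protein synthesis, energy supply and secretion. Rplp1, an acidic protein of the ribosomal stalk that helps recruit elongation factors, read 10.31, 10.84 and 10.33 in TG3 and 10.07, 9.31 and 9.64 in nonTG3. The difference was 0.82 (95% interval 0.21 to 1.43). Each TG3 array lay above each nonTG3 array, with nonTG3 array 1 nearest to them. A dimmer Rplp1 probe set differed by 0.50 (-0.22 to 1.22) and overlapped. Rps3a1, of the small ribosomal subunit, read 7.10, 7.23 and 6.98 in TG3 and 6.65, 5.15 and 6.55 in nonTG3, a difference of 0.98 with an interval from -0.05 to 2.02. Here nonTG3 array 2 alone lay far below the rest, and a dimmer Rps3a1 probe set differed by 0.26 (-0.10 to 0.62) and overlapped. Nop10, a core protein of the box H/ACA particles that guide pseudouridylation of ribosomal RNA, read 6.40, 6.41 and 6.38 against 6.20, 5.38 and 5.58 (0.68, interval 0.14 to 1.22). Its 3 TG3 values were nearly equal, and the nonTG3 values were spread over 0.8 units.

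Energy and membrane genes had the same order among the littermate arrays. Atp5mpl, a small subunit of mitochondrial ATP synthase, read 6.15, 6.26 and 6.20 in TG3 and 5.87, 5.02 and 5.45 in nonTG3, a difference of 0.76 (0.21 to 1.30). Ost4, a small subunit of the oligosaccharyltransferase that adds N-glycans in the endoplasmic reticulum, read 7.47, 7.12 and 6.84 against 6.72, 5.26 and 6.15, a difference of 1.10 (0.12 to 2.08). Psenen, a subunit of gamma-secretase, read 6.26, 6.41 and 6.65 against 6.09, 5.69 and 5.83 (0.57, 0.19 to 0.95). In each of these 3 genes nonTG3 array 1 was the highest littermate array and nonTG3 array 2 the lowest. Further probe sets of Ost4 and Psenen had smaller differences, 0.55 (-0.13 to 1.23) and 0.29 (-0.24 to 0.82), and overlapped.

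Genes known from epithelia and secretions were also in this group. Wfdc13 and Wfdc10, whey acidic protein family members of the male tract, read 6.57, 6.85 and 6.80 against 6.34, 4.67 and 5.49, and 11.31, 11.29 and 11.29 against 11.16, 9.85 and 10.26. Their differences were 1.24 (0.20 to 2.28) and 0.87 (0.05 to 1.70). Cldn4, a tight junction protein of epithelia, read 5.11, 5.44 and 5.38 against 4.83, 4.58 and 4.92, a difference of 0.54 (0.19 to 0.88). Tagln2, an actin-binding protein, read 5.58, 5.74 and 5.68 against 5.37, 4.95 and 4.95, a difference of 0.57 (0.23 to 0.92). A further Tagln2 probe set overlapped, at 5.68, 7.63 and 7.75 against 7.49, 5.75 and 6.07. In the probe sets named by the rule the groups did not overlap for any of these 4 genes, and the gap to nonTG3 array 1 was the narrowest in 3 of them; for Cldn4 the nearest littermate array was nonTG3 array 3.

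Other genes had other roles. Usp50, a member of the ubiquitin-specific protease family, had the smallest p of the brighter RNAs with a higher mean in TG3, at 6.00, 5.68 and 5.62 against 5.36, 4.95 and 5.02 (0.66, 0.26 to 1.06). Its other probe set, with a mean below 5, went the other way, by -0.19 (-0.56 to 0.19). Hint1, a purine nucleoside phosphoramidase, read 6.99, 6.86 and 6.76 against 6.47, 5.66 and 6.30 (0.73, 0.17 to 1.28). Pantr1, a long non-coding RNA, read 5.32, 5.19 and 5.76 against 5.03, 4.83 and 4.39, a difference of 0.67 (0.11 to 1.23). For Pantr1 the lowest littermate array was nonTG3 array 3 rather than array 2.

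Among RNAs with lower means in TG3, there were genes of germ cells and several members of a clustered family. Smok4a, of a family of sperm motility kinases, read 6.29, 5.80 and 5.84 in TG3 and 6.49, 6.78 and 6.70 in nonTG3, a difference of -0.68 (-1.09 to -0.27). Zcwpw2, a protein with zinc finger CW and PWWP domains of the kind that bind methylated histone H3, read 6.65, 6.10 and 5.84 against 6.90, 6.88 and 7.22, a difference of -0.80 (-1.38 to -0.22). Ncoa7, a nuclear receptor coactivator, read 5.64, 5.37 and 4.94 against 5.77, 5.98 and 6.27 (-0.69, -1.24 to -0.14). In these 3 genes TG3 array 1 was the carrier array nearest to the littermates. Lyrm7, an assembly factor of respiratory complex III, read 5.14, 5.19 and 4.96 against 5.54, 5.46 and 5.50, a difference of -0.40 (-0.63 to -0.17), with all 3 littermate arrays within 0.1 of each other.

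The Btbd35f genes are near-identical copies that encode BTB domain proteins, so the signal of one can come from another. Btbd35f12 read 5.50, 4.88 and 5.42 in TG3 and 5.98, 6.02 and 6.20 in nonTG3, a difference of -0.80 (-1.27 to -0.33). Btbd35f2 read 7.77, 7.73 and 7.38 against 8.08, 8.01 and 8.25 (-0.49, -0.83 to -0.15), and Btbd35f17 read 4.98, 4.80 and 5.08 against 5.21, 5.50 and 5.55 (-0.47, -0.79 to -0.14). These 3 of the 9 measured members had groups that did not overlap, beside 1.65% of all probe sets with TG3 lower. The family was singled out after its values were seen: 5 members were lower and 4 higher in TG3, and the 4 with a mean of 5 or more were lower, with a median of -0.50. The copies are not independent of each other, and each is a single probe set.

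Col1a2, a chain of type I collagen made by fibroblasts, had the lowest difference among the brighter RNAs with separate groups, -1.002 (-1.90 to -0.11). It read 5.30, 4.55 and 5.39 in TG3 and 5.48, 6.15 and 6.61 in nonTG3. A further Col1a2 probe set did not share this, at 5.67, 4.81 and 5.19 against 4.70, 4.97 and 5.79 (0.07, -0.81 to 0.95). Markers of fibroblasts, muscle and vessels as a list moved with single arrays rather than with genotype: their mean level was 5.02, 4.28 and 4.32 on the TG3 arrays and 4.42, 4.44 and 4.88 on the nonTG3 arrays, with 22 members higher and 23 lower. The list's part in the Col1a2 result was not tested. Postn, a matrix protein of fibroblasts, had the lowest difference of all probe sets, -1.28 (-2.51 to -0.04), at 3.38, 2.53 and 2.51 against 3.14, 4.23 and 4.90. Its groups overlapped and its mean was below 5.

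**Figure D3:**
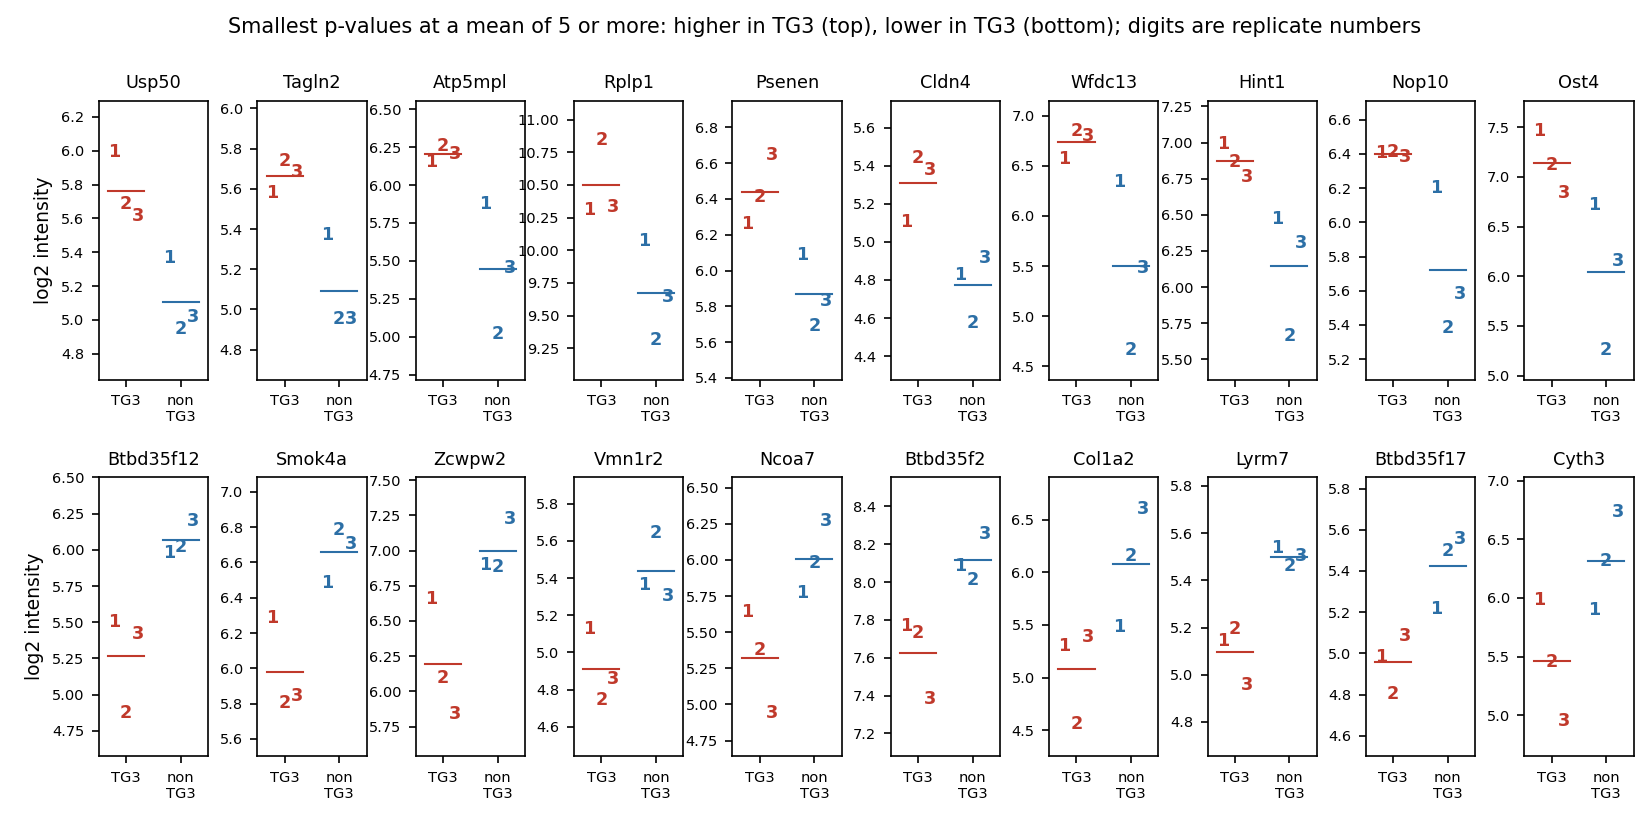
Level on each array (vertical axis, log2 intensity, a separate scale per gene) of the 10 brighter genes with the smallest p-values among those higher (top) and lower (bottom) in TG3; each digit is the replicate number of 1 array, and each line is the mean of 3. For Rplp1 and Ost4 nonTG3 array 2 is lowest, and for Btbd35f12 the 3 TG3 arrays lie below the 3 nonTG3 arrays.

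MicroRNA genes were among the RNAs at both ends, and their mature sequences show which products the genes encode. MicroRNAs pair with target mRNAs mainly through the seed, bases 2 to 8. The array reads the gene's transcript and cannot tell the 2 arms of a hairpin apart, so both arms are shown. Of 4 microRNA genes named here, 3 had mature sequences in the RefSeq table of assembly GRCm38.p6, printed 5′ to 3′ with the seed in capitals:
mmu-miR-365-1-5p: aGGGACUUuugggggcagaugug
mmu-miR-365-3p: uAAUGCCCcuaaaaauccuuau
mmu-miR-194-5p: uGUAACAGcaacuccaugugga
mmu-miR-194-2-3p: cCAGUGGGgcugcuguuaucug
mmu-miR-1198-5p: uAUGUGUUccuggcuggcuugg
mmu-miR-1198-3p: aAGCUAGCcucuaacucauggc
The 6 seeds differ from each other. The arms of Mir365-1 lie at chr16:13453855-13453877 and chr16:13453895-13453916, those of Mir194-2 at chr19:6264658-6264679 and chr19:6264694-6264715, and those of Mir1198 at chrX:7807142-7807163 and chrX:7807180-7807201, each on the plus strand.

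Mir365-1 read 6.96, 7.14 and 7.42 in TG3 and 6.88, 6.32 and 5.68 in nonTG3, a difference of 0.88 (0.09 to 1.68). The littermate arrays spread over more than 1 unit, and nonTG3 array 1 was within 0.1 of TG3 array 1. Mir194-2 read 4.14, 4.09 and 3.95 in TG3 and 4.64, 4.67 and 4.90 in nonTG3, a difference of -0.67 (-0.94 to -0.41). It had the smallest p of all probe sets with a lower mean in TG3, at a limma adjusted p of 0.923, and no littermate array came near the carriers. Mir1198 read 4.08, 3.85 and 3.96 against 4.70, 4.63 and 4.33, a difference of -0.59 (-0.91 to -0.27), again with no overlap. Mir449b, of a family expressed in testis and in multiciliated cells, was bright and close on the 6 arrays, at 11.03, 11.27 and 11.34 in TG3 and 11.16, 11.41 and 11.23 in nonTG3 (-0.05, -0.35 to 0.25).

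Over all probe sets, 20 genes were named for the smallest p-values, 10 in each direction. Of these 2, Lyrm7 and Btbd35f12, had a mean of 5 or more, beside 21.3% of all probe sets. Tmem176a, a transmembrane protein of myeloid and epithelial cells, read 5.07, 5.00 and 4.66 in TG3 and 4.37, 3.98 and 3.83 in nonTG3, a difference of 0.85 (0.39 to 1.31). Nrtn, the growth factor neurturin, which signals through the RET receptor, read 4.04, 3.93 and 3.88 against 3.58, 3.39 and 3.22 (0.55, 0.26 to 0.84). Prickle2, a planar cell polarity protein, read 3.98, 4.01 and 4.05 against 4.36, 4.34 and 4.29 (-0.31, -0.49 to -0.14). In these 3 genes no array of one genotype reached the range of the other, and the limma adjusted p was 0.923 for each.

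The largest differences of all were chosen by size after their values were seen, and in the 3 genes described next nonTG3 array 1 read like a carrier array. Spink14, a Kazal-type protease inhibitor, read 8.64, 8.84 and 9.28 in TG3 and 8.98, 6.70 and 6.63 in nonTG3, a difference of 1.48 (-0.19 to 3.15). Ceacam10, a secreted member of the carcinoembryonic antigen family, read 8.003, 8.85 and 8.82 against 8.87, 6.26 and 6.37, a difference of 1.39 (-0.49 to 3.27). Npy, the gene of neuropeptide Y, read 7.30, 7.18 and 7.81 against 7.30, 5.36 and 5.87, a difference of 1.25 (-0.04 to 2.54). For each of them nonTG3 arrays 2 and 3 were low by more than 1 unit while nonTG3 array 1 lay within the carriers' range or above it. Retnla, a resistin-like secreted protein of macrophages and epithelia, had the largest difference, 1.53 (-0.06 to 3.11), at 4.64, 6.62 and 4.85 against 4.64, 3.21 and 3.68, and TG3 array 2 alone was high.

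Gene groups were described with 30 lists, each gene represented by its brightest probe set. No member of any list was called, so each list is given by its counts and median, beside 51% of probe sets higher in TG3 and a median of 0.0045 over all features. Lists of protein synthesis and energy were among those with the highest shares of higher members. Among 63 cytosolic ribosomal proteins, 55 were higher and 8 lower in TG3, with a median of 0.37, and 44 of them had a mean of 5 or more (median 0.45). The groups did not overlap for 7 of the 44, against 2.08% of the brighter probe sets in that direction. Beyond Rplp1 and Rps3a1 these included Rps10, at 6.82, 6.93 and 7.15 against 6.75, 6.17 and 6.35, and Rpl3, at 7.50, 7.28 and 7.03 against 6.93, 6.39 and 6.93. Both dimmer Rpl3 probe sets overlapped, with differences of -0.05 and -0.22. Rpl41, the brightest member, had a difference of 0.19 (-0.10 to 0.47) and overlapped.

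The ribosomal list was uneven within the littermates. Its mean level was 6.95, 6.82 and 6.72 on TG3 arrays 1, 2 and 3 and 6.79, 6.11 and 6.51 on nonTG3 arrays 1, 2 and 3. nonTG3 array 1 was within the range of the carriers, and nonTG3 array 2 was the lowest. The median was 0.16 without nonTG3 array 2 and 0.51 without nonTG3 array 1. Members of such a list vary together, so 55 of 63 is not a count of independent events.

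Among 80 nuclear genes of oxidative phosphorylation, 67 were higher and 13 lower in TG3, with a median of 0.30. The groups did not overlap for 5 of the 51 brighter members, each with TG3 higher, against 2.08% of the brighter probe sets in that direction. Cox6a1, of cytochrome c oxidase, read 8.68, 8.62 and 8.77 against 8.51, 7.62 and 7.97 (0.65, 0.08 to 1.23). Cyc1, the cytochrome c1 of complex III, read 5.28, 5.27 and 5.35 against 5.10, 4.74 and 4.80 (0.42, 0.13 to 0.71). The list's mean level was 5.66, 5.63 and 5.57 in TG3 and 5.62, 5.05 and 5.31 in nonTG3, the same order as for ribosomal proteins. Its median was 0.14 without nonTG3 array 2.

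Mitochondrial ribosomal proteins and proteasome subunits leaned the same way by less. Of 73 mitochondrial ribosomal proteins 53 were higher and 19 lower, with a median of 0.11, and of 42 proteasome subunits 33 were higher and 9 lower, with a median of 0.17. Mrpl50, of the large mitochondrial subunit, read 4.99, 4.83 and 4.79 against 4.36, 4.11 and 4.24, a difference of 0.63 (0.37 to 0.89). Mrpl32, also of the large subunit, read 4.09, 3.40 and 3.17 against 2.69, 2.20 and 2.56, a difference of 1.07 (0.39 to 1.75). Psmb5, which holds the chymotrypsin-like site of the proteasome, read 6.80, 6.69 and 6.51 against 6.48, 6.08 and 6.20 (0.41, 0.06 to 0.76). For these 3 genes the groups did not overlap. Translation control genes (51, median 0.070), chaperones (45, median 0.12) and glycolytic enzymes (28, median 0.083) had smaller medians, and the groups did not overlap for 1, 0 and 0 of their members, beside 4.12% of all probe sets. Without nonTG3 array 2 the medians were 0.011 for chaperones and 0.021 for glycolytic enzymes, and without TG3 array 2 that of translation control genes was 0.015.

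Markers of the epididymal epithelium moved with these lists. Of 54 such genes, 41 were higher and 13 lower in TG3, with a median of 0.21, and 18 of the 21 with a mean of 5 or more were higher, with a median of 0.58. Their mean level was 5.11, 4.95 and 5.03 in TG3 and 5.09, 4.65 and 4.48 in nonTG3, so nonTG3 arrays 2 and 3 were low and nonTG3 array 1 was not. Krt19, an epithelial keratin, read 5.33, 5.32 and 5.18 against 5.02, 4.71 and 4.32 (0.59, 0.12 to 1.06). Secretory genes of this list differed in level. Wfdc10 had a mean of 10.86 over the 6 arrays, while Gpx5 and Crisp4, named after their values were seen, were dim. Gpx5, a secreted glutathione peroxidase, read 3.57, 3.57 and 3.76 against 4.57, 2.98 and 3.47, and Crisp4 read 3.94, 3.55 and 3.85 against 4.93, 3.33 and 2.51. For both, nonTG3 array 1 was the highest of the 6 arrays. Defb21 and Defb25, beta-defensins of the epididymis, were lower in TG3, at 2.72, 2.28 and 1.76 against 3.38, 2.94 and 2.85, and at 4.34, 4.31 and 4.52 against 4.73, 4.60 and 4.68.

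Leukocyte genes had a mean level of 3.95, 3.84 and 3.77 in TG3 and 3.77, 3.60 and 3.71 in nonTG3, with 29 of 47 higher, 17 lower and a median of 0.11. Of the 5 with a mean of 5 or more, 4 were higher and 1 lower, with a median of 0.42. Groups were separate for 4 of the 47, each with TG3 higher, beside 2.47% of all probe sets in that direction. Lyz2, the lysozyme of macrophages and neutrophils, read 5.09, 4.46 and 4.41 against 4.33, 2.02 and 3.65, a difference of 1.32 (-0.19 to 2.84) in which nonTG3 array 2 weighed most. C1qb, a complement subunit of macrophages, read 4.66, 4.81 and 4.93 against 4.34, 4.43 and 4.66 (0.33, 0.02 to 0.63). The part of epididymal and leukocyte RNA in the ribosomal and energy lists was not tested. Of Sertoli cell genes 16 of 26 were higher (median 0.028), and of the 5 with a mean of 5 or more 4 were (median 0.35). Of Leydig cell genes 9 of 12 were higher (median 0.067), and the 1 with a mean of 5 or more, Ptgds, differed by 0.74 (-0.69 to 2.16). Of red blood cell genes 4 of 8 were higher (median 0.013). Star, the cholesterol carrier of steroid synthesis, was dim at 3.44, 3.44 and 3.50 against 3.04, 2.79 and 3.15.

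The 10 mitochondrially encoded genes had higher means in TG3 in 10 of 10, with a median of 0.40, and yet were not separated by genotype in any. Their mean level was 8.80, 11.44 and 11.51 in TG3 and 11.55, 9.98 and 8.91 in nonTG3. The median became 1.26 without TG3 array 1 and -0.22 without nonTG3 array 3, so its direction rested on single arrays. The genes come from 1 long precursor per strand and are not separate observations.

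**Figure D4:**
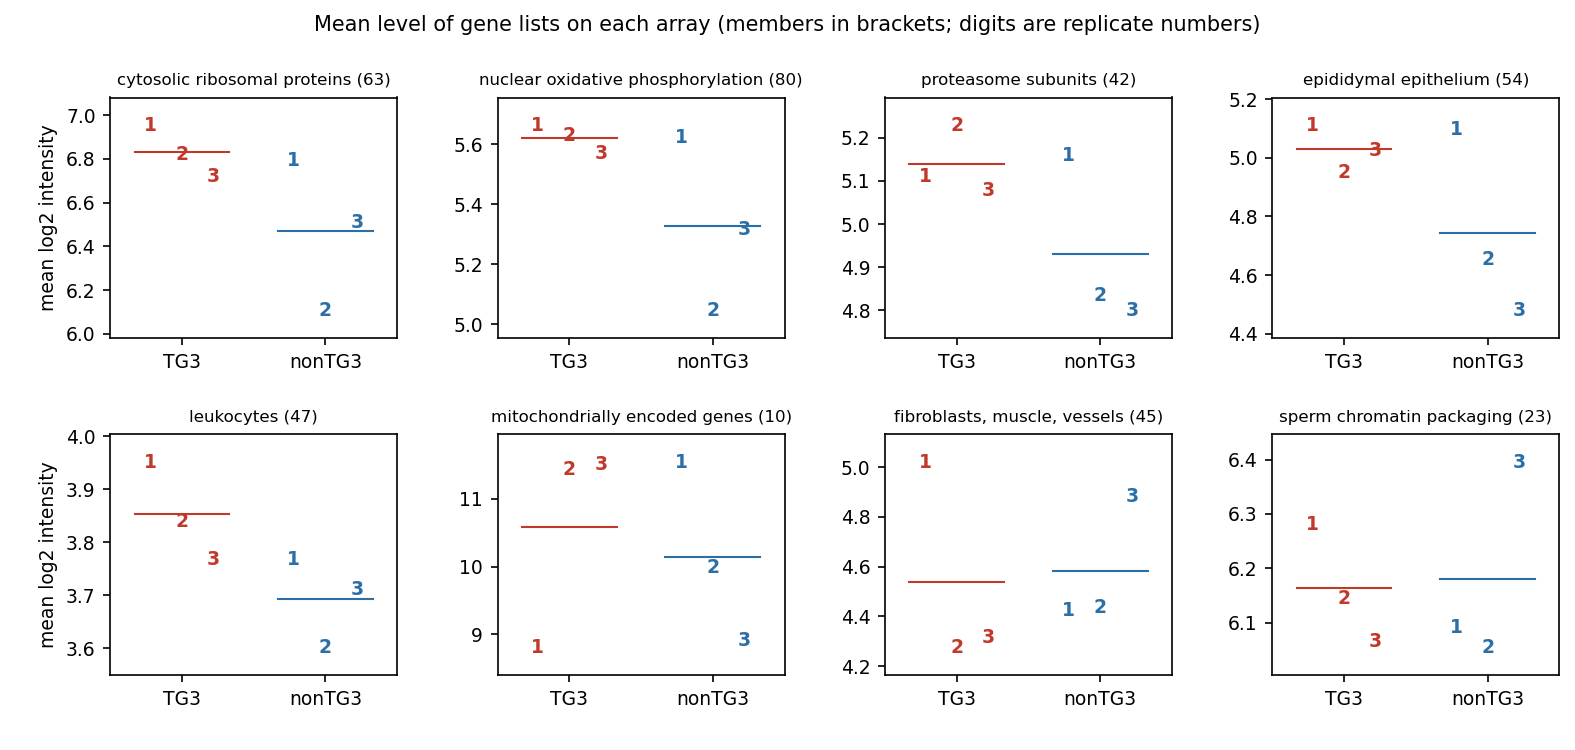
Mean level of the members of 8 lists on each array (vertical axis, log2 intensity, a separate scale per list), TG3 and nonTG3 side by side, with the number of members in the title; each digit is the replicate number of 1 array, and each line is the mean of 3. For cytosolic ribosomal proteins and nuclear oxidative phosphorylation nonTG3 array 1 lies among the TG3 arrays and nonTG3 array 2 is lowest.

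Genes of late spermatogenesis had medians near 0 over all members. Among 23 genes of sperm chromatin packaging, 11 were higher and 12 lower in TG3, with a median of -0.034 that was 0.063 without nonTG3 array 3. Of the 12 with a mean of 5 or more, 3 were higher and 9 lower, with a median of -0.16, beside -0.040 over all brighter probe sets. Tnp1 and Tnp2, the transition proteins that stand between histones and protamines, read 9.37, 9.23 and 9.46 against 9.58, 9.58 and 9.85, and 11.18, 11.01 and 10.86 against 11.16, 11.18 and 11.41. Their differences were -0.32 (-0.61 to -0.03) and -0.23 (-0.54 to 0.07). Tnp1 was separated between genotypes and Tnp2 was not. H2ax, a histone variant that marks DNA breaks and the sex chromosomes in meiosis, read 5.34, 5.34 and 5.09 against 5.01, 4.80 and 4.90 (0.35, 0.08 to 0.62). Prm1 differed by -0.07 (-0.29 to 0.16).

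Acrosome genes more often had a lower mean in TG3, and flagellum genes were evenly divided. Of 55 genes of the acrosome and egg binding, 20 were higher and 35 lower in TG3, with a median of -0.050 that was 0.051 without TG3 array 3. Of the 28 with a mean of 5 or more, 10 were higher and 18 lower, beside 56.4% lower over all brighter probe sets. Groups were separate for 3 acrosome genes with TG3 higher, among them Lyzl1 at 0.22 (-0.03 to 0.46), and for 2 with TG3 lower. Of 76 flagellum and motility genes 40 were higher and 36 lower, with a median of 0.0035. Odf1, the main outer dense fibre protein, read 11.17, 11.86 and 11.86 against 11.61, 11.12 and 11.43 (0.25, -0.34 to 0.83), and its dimmer probe set differed by 0.56 (-0.29 to 1.41). Spata19, a mitochondrial protein of the sperm midpiece, read 4.48, 4.95 and 4.62 against 5.18, 4.96 and 5.28 (-0.45, -0.84 to -0.06). TG3 array 2 and nonTG3 array 2 nearly met, though the groups did not overlap. Pfn4, a profilin of the testis, read 4.23, 4.40 and 4.33 against 4.73, 4.55 and 4.55 (-0.29, -0.52 to -0.06). Zpbp, which binds the zona pellucida, read 5.09, 5.08 and 4.94 against 5.23, 5.22 and 5.22 (-0.19, -0.38 to 0.01).

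Genes of earlier germ cell stages had medians below 0 over all members. These were -0.043 for 48 meiosis genes (21 higher, 27 lower), -0.068 for 28 genes of the piRNA pathway and chromatoid body (9 higher, 19 lower) and -0.033 for 33 spermatogonial genes (15 higher, 18 lower). Among members with a mean of 5 or more the medians were -0.28 for meiosis (7 of 10 lower), -0.12 for the piRNA pathway (7 of 10 lower) and 0.11 for spermatogonia (2 of 5 lower), beside -0.040 and 56.4% lower over all brighter probe sets. The meiosis median over all members was 0.010 without TG3 array 3. Ddx4, the germ cell RNA helicase vasa, read 7.08, 6.68 and 5.79 in TG3 and 7.06, 7.07 and 7.51 in nonTG3, a difference of -0.69 (-1.56 to 0.17). TG3 array 3 was the lowest, TG3 array 2 also lay below the littermates, and TG3 array 1 lay within their range. Dmrtb1, a transcription factor at the entry into meiosis, read 5.29, 5.61 and 5.63 against 5.15, 5.11 and 5.11 (0.39, 0.10 to 0.67). In these 3 lists the groups did not overlap for 3, 0 and 2 members with TG3 higher and for 0, 0 and 1 with TG3 lower. Over all probe sets the shares were 2.47% and 1.65%. The counts of 3 and 2 with TG3 higher lay above that share, though they are small.

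Chromatin enzymes, the partners and counterparts of KDM1A, had medians just below 0. Their groups overlapped for each member, which at a share of 4.12% over all probe sets is no mark of these genes. Of 26 genes of the Kdm1a and CoREST complex, 11 were higher and 15 lower in TG3, with a median of -0.0070. Chd4, the remodelling ATPase of the NuRD complex, read 9.86, 9.48 and 9.13 against 9.65, 9.86 and 10.13, a difference of -0.39 (-0.94 to 0.16). A list of 43 genes held enzymes that write or erase methyl groups on lysines 4 and 9 of histone H3, and complex members. Of these, 15 were higher and 28 lower, with a median of -0.080, which was 0.033 without TG3 array 1. Ehmt2, the lysine 9 methyltransferase G9a, read 5.74, 6.13 and 5.61 against 5.40, 5.61 and 5.38 (0.36, -0.03 to 0.76). Kdm6a, an X-linked demethylase that belongs to a lysine 4 methyltransferase complex, read 5.80, 4.89 and 5.20 against 5.54, 5.70 and 6.11 (-0.48, -1.16 to 0.19). Both of these overlapped between genotypes.

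DNA methylation and imprinted genes were also close to the background. The 20 genes of DNA methylation had a median of 0.019, with 11 higher, and the 39 imprinted genes had a median of 0.020, with 21 higher. Dnmt3a, a de novo methyltransferase, read 6.45, 5.93 and 6.10 against 6.14, 6.59 and 6.72 (-0.32, -0.84 to 0.19). Dnmt3b, its paralog, was dim at 3.33, 3.49 and 3.65 against 3.11, 3.32 and 3.32. Nap1l5, a paternally expressed nucleosome assembly gene, read 4.12, 4.21 and 4.08 against 3.60, 3.80 and 3.44 (0.52, 0.24 to 0.81). It was the only imprinted gene of the 39 whose groups did not overlap, which beside 4.12% of all probe sets is no mark of these genes.

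Developmental and immune lists were dim, with 1 to 8 members at a mean of 5 or more. Of 79 developmental transcription factors 51 were higher in TG3 (median 0.049), of 70 signalling ligands 38 (median 0.012) and of 36 Hox genes 23 (median 0.030). Pax7, a factor of muscle stem cells and neural crest, read 5.27, 5.09 and 4.84 against 4.43, 4.40 and 4.65 (0.57, 0.22 to 0.92). Irx1, an Iroquois homeobox factor, read 5.03, 5.11 and 5.10 against 4.84, 4.56 and 4.72 (0.37, 0.13 to 0.62). The groups did not overlap for 5 transcription factors with TG3 higher and 2 with TG3 lower, and for no Hox gene, beside 2.47% and 1.65% of all probe sets.

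Of interferon-induced genes 18 of 35 were higher (median 0.025), and of cornified envelope genes 24 of 40 were (median 0.051). Of kallikrein 1b genes 5 of 11 were higher (median -0.050). Groups were separate with TG3 higher for 0, 4 and 2 members of these lists, beside 2.47% of all probe sets. The 4 and 2 lay above that share, though they are small counts that include paralogs. With TG3 lower they were separate for 1, 0 and 0, beside 1.65%. The separate members included Lce6a at 0.68 (0.40 to 0.97) and Sprr2h at 0.90 (0.47 to 1.32), both cornified envelope genes. They also included Klk1b24 at 0.63 (0.34 to 0.92) and the interferon-induced Mx2 at -0.48 (-0.68 to -0.28). These 4 genes had means below 5 and were not called. The separate cornified envelope genes were dimmer still. Their means over the 6 arrays were 3.34 for Lce6a, 2.67 for Sprr2f, 1.70 for Sprr2h and 1.56 for Sprr2j-ps. Each of these means lay below the median of every array, so the separate groups do not show a change in RNA. Irf7, a regulator of interferon genes, read 3.83, 3.94 and 4.18 against 4.26, 4.14 and 4.30 (-0.25, -0.53 to 0.04). Klk1b11, a kallikrein, read 4.89, 5.04 and 4.86 against 4.32, 3.91 and 4.71 (0.62, 0.10 to 1.14), while Klk1b8 read 4.00, 4.14 and 4.48 against 4.42, 4.55 and 5.23 (-0.53, -1.15 to 0.10). Kallikrein 1b and small proline-rich genes have close paralogs, so their probe sets may share signal.

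**Figure D5:**
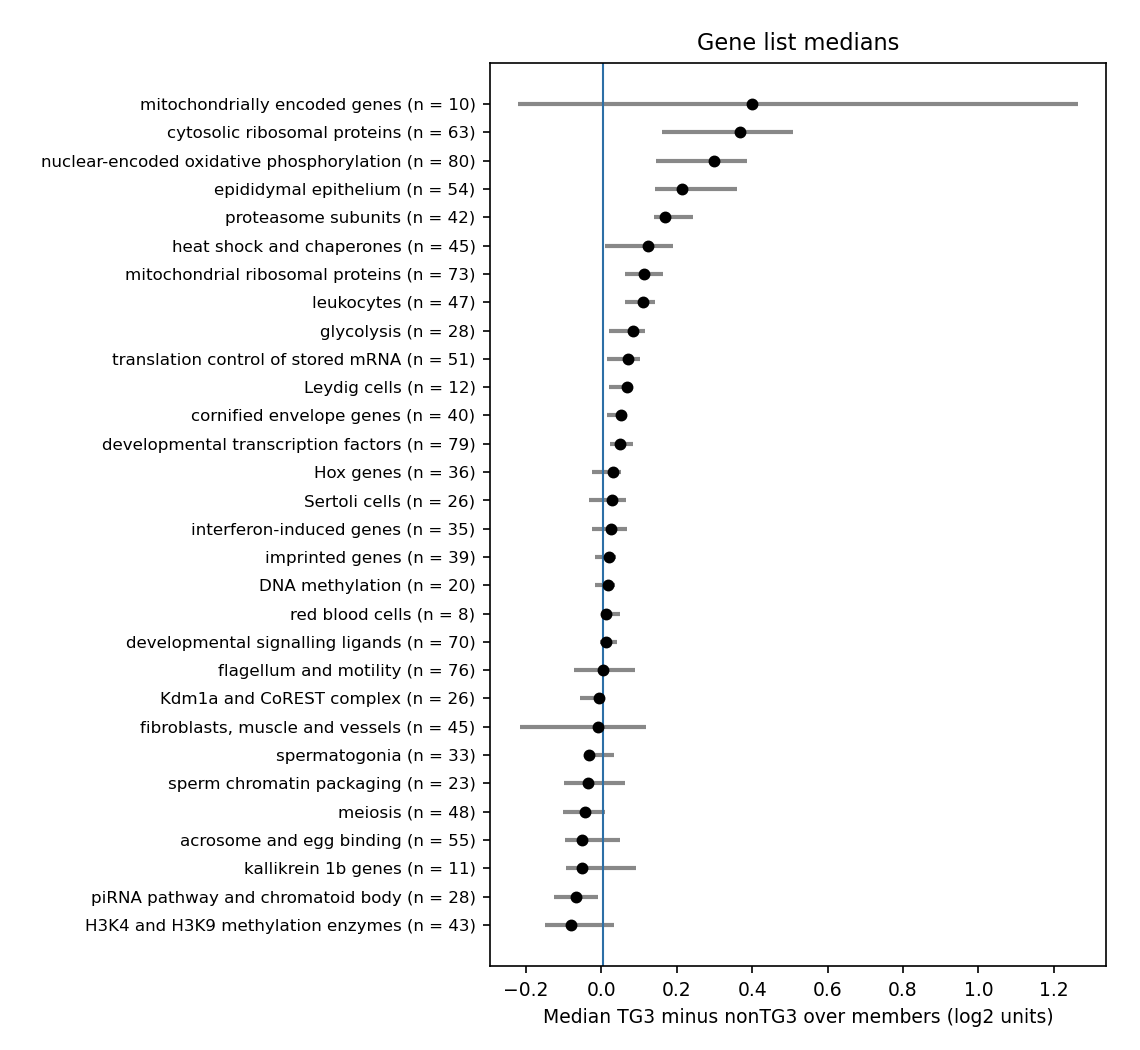
Median difference between TG3 and nonTG3 (horizontal axis, log2 units) of the members of each of the 30 lists (vertical axis), with a bar for the range of the median when each array was left out in turn and a vertical line at the median of all probe sets, 0.0045. Cytosolic ribosomal proteins lie at 0.37, and the bar of the mitochondrially encoded genes runs from -0.22 to 1.26.

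The 10 genes with the highest mean levels overlapped between genotypes. A level depends on the probes of its gene, so these are not ranked as amounts of RNA. Rn7sk, the non-coding RNA that holds the elongation factor P-TEFb in check, read 12.98, 12.57 and 12.53 in TG3 and 12.55, 12.61 and 12.61 in nonTG3, a difference of 0.11 (-0.24 to 0.46). Smcp differed by 0.12 (-0.28 to 0.52) and Grina, a membrane protein of the Bax inhibitor family, by -0.08 (-0.62 to 0.46). B2m, the light chain of class I histocompatibility molecules, read 11.82, 11.35 and 11.44 against 11.86, 10.58 and 11.05, a difference of 0.37 (-0.48 to 1.22), and nonTG3 array 2 was again the lowest. n-R5s136, a 5S ribosomal RNA gene, differed by 0.35 (-0.35 to 1.05). For both, a doubling lies within the interval.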

How the data were processed

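RNA of pooled sperm was measured on 7 arrays, of which 3 TG3 and 3 nonTG3 were used. The deposited values are log2 intensities that the authors made with RMA, which corrects background, normalizes arrays and summarises probes. The submitters' processing notes name R 3.1.0, oligo, RMA and limma. The sources used here give no filter, genome build or scan batch. Of the probe sets, 1801 had several gene symbols and 8310 had none, and these were left out. Entrez identifiers matched 23300 of the others to RefSeq GRCm38.p6. RMA returned 4 or fewer distinct values over the 6 arrays for 30.9% of probe sets and for 11.7% of those with a mean of 5 or more. Array medians were 3.53 to 3.61. The number of arrays, not a read depth, limits precision.

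A mean per group was fitted with limma 3.58.1 in R 4.3.3 and moderated with eBayes. Array weights were estimated gene by gene. Benjamini-Hochberg adjustment covered the 23493 probe sets, or the 5011 in their own fit. Intervals are limma's 95% intervals from the fit over all probe sets and are not adjusted for the number of genes. The steps were tested on simulated data. Members and lists were chosen with earlier results of these data known. Leaving out clone names, the rule for single genes took the 10 smallest p in each direction over all and over the brighter probe sets, the 10 largest differences with separate groups among the brighter, the 10 highest means, Kdm1a, and up to 4 members of each list with the smallest p. Any other gene was named after its values were seen. Sequences are from RefSeq, GRCm38.p6. Alternatives covered normalization, the prior, weights, filters, ties, single arrays and the replicate number. Figures were drawn with matplotlib 3.10.9.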

Additional observations from a re-analysis of the deposited data

How the results depend on the processing

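limma called 0 probe sets under each of the 20 alternatives, in both sets, with a smallest adjusted p of 0.518 over all probe sets and 0.255 among the brighter. None of 165 named genes was called, and 156 kept the sign of their difference. Counts at an unadjusted p under 0.05 moved. Over all probe sets the 559 became 950 with array weights, 233 for probe sets in the upper range (a mean no lower than the median probe set's), 29 with a mean of 6 or more, 843 over the whole table, 1155 without both TG3 array 1 and nonTG3 array 3, and 445 to 1424 without 1 array. Among the brighter, the 64 became 117 after quantile normalization, 111 after cyclic loess, 570 with weights, 233 and 29 under the same filters, 227 without both arrays, and 14 to 570 without 1 array. Separate groups among the brighter (180) became 323 after quantile normalization, 318 after cyclic loess, 461 and 67 under the filters, 1887 without both arrays, and 289 to 1644 without 1 array. After renormalization the mean of 5 was applied to the new values.

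Weights with a mean of 6 or more were 0.373, 3.19 and 0.464 for TG3 arrays 1, 2 and 3. Without 1 array the weight was 0.783 to 1.56 for TG3 array 2 and 1.08 to 1.98 for nonTG3 array 2, and without both arrays TG3 array 2 had 0.814; 2 arrays left in a group have equal weights by construction.

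Of the 30 list medians, 11 kept their sign under each alternative. With that filter at the median probe set they became 0.11 (imprinted), 0.089 (interferon-induced), 0.32 (kallikrein) and 0.39 (Leydig). At a mean of 6 or more, with fewer members, they became -0.055 (mitochondrial ribosomal), -0.22 (chromatin packaging), -0.35 (meiosis), -0.36 (piRNA), -0.23 (spermatogonia), -0.080 (CoREST), -0.19 (histone H3 methylation enzymes), -0.32 (DNA methylation), 0.28 (interferon-induced), -0.32 (developmental factors), -0.39 (ligands), 0.35 (Sertoli), 0.74 (Leydig), 0.74 (epididymal) and 0.51 (leukocytes). The Leydig value at a mean of 6 or more is that of 1 gene, Ptgds, and the interferon-induced value rests on at most 2. The Sertoli, leukocyte and DNA methylation values rest on at most 5, 5 and 6 genes. They equal the differences of Cldn3, H2-Ab1 and Dnmt3a. Without tied probe sets the list medians became 0.060 (imprinted), -0.015 (interferon-induced) and 0.12 (red blood cells), and spermatogonia became 0.055 without both arrays. Without 1 array the ranges were -0.034 to 0.034 (spermatogonia), -0.15 to 0.033 (histone H3 methylation enzymes), -0.017 to 0.040 (imprinted), -0.024 to 0.067 (interferon-induced) and -0.094 to 0.093 (kallikrein). The cause of these shifts was not tested.

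The labels do not say whether the replicate numbers pair the pools. Same-numbered arrays deviated from their group means with r of -0.449, 0.016 and -0.403, which cannot show whether those pools shared an origin or a batch. With the replicate block 0 probe sets were called, and 443 of all and 22 of the brighter had an unadjusted p under 0.05.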
